A study of Homo sapiens with 24 samples.

Results

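The nuclear lamina genes described here are LMNA, LMNB1, LMNB2, LBR, TMPO, SUN1 and SUN2, 7 of the 39772 genes listed in at least 1 of 4 deposited tables. They were taken by gene symbol, as the lamin genes and the genes of inner nuclear membrane proteins that bind lamins, and all 7 were listed and tested in each table. The set was chosen by measured values too, namely the GSK-J4 fold changes and mean levels of these genes, so their values are a description and were given no test beyond the authors' own. The tables come from RNA sequencing of 4 human neuroblastoma cell lines, each untreated or exposed for 72 h to 1 µM GSK-J4, a cell-permeable inhibitor of the histone H3 lysine 27 demethylases. LAN5 and IMR5 are labelled MYCN-amplified and sensitive to GSK-J4, SK-N-FI is labelled MYCN wildtype and sensitive, and SK-N-BE(2) is labelled MYCN-amplified and resistant. Each of the 8 groups had 3 libraries, 24 in all, and the titles of the treated SK-N-BE(2) libraries do not carry the 72 h that those of the other lines do. MYCN wildtype and MYCN-amplified sensitive cells differ by line as well as by MYCN, and a single resistant line stands against 3 sensitive ones.

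The lamina is a meshwork of intermediate filament proteins under the inner nuclear membrane. LMNA encodes lamins A and C, the A-type lamins, which are low in many embryonic cells, rise as cells differentiate and stiffen the nucleus, while LMNB1 and LMNB2 encode the B-type lamins, which stay anchored to the membrane by a farnesyl group. LBR, the lamin B receptor, holds heterochromatin at the nuclear rim and is also a sterol reductase, and TMPO encodes the LAP2 proteins, of which LAP2-beta binds B-type lamins in the membrane and LAP2-alpha binds A-type lamins inside the nucleus. SUN1 and SUN2 cross the inner membrane and pair with nesprins in the outer membrane to form the LINC complex, which ties the lamina to the cytoskeleton. Loss of lamin B1 is a widely used mark of senescent cells.

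LMNB1, LMNB2, LBR and TMPO fell in all 3 sensitive lines, and the DNA just before these 4 genes is shown because they moved together. The sequences are from the RefSeq promoter table on GRCh38.p14, 5′ to 3′ on the gene's own strand, cut to the bases that precede the gene's first annotated base in GENCODE 29. They cover chr5:126776373-126776622 on the plus strand for LMNB1, chr19:2456997-2457209 on the minus strand for LMNB2, chr1:225428926-225429071 on the minus strand for LBR and chr12:98515323-98515511 on the plus strand for TMPO. Capitals mark the single motif match they hold, a CHR (cell cycle homology region) element in LMNB2. The LMNB1 stretch precedes a start that lies 525 bases from the nearest start of a transcript marked principal in GENCODE 29. The window of the downstream LMNB1 start, 12 bases from a principal start, is not shown.
LMNB1: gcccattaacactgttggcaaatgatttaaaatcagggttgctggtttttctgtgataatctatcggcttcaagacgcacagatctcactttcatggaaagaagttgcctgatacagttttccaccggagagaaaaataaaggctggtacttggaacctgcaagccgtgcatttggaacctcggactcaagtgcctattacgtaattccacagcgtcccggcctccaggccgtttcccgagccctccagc
LMNB2: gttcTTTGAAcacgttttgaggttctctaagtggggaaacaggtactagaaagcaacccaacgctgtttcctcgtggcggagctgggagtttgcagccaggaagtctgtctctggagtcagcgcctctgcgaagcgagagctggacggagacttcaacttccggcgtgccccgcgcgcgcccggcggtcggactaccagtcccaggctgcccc
LBR: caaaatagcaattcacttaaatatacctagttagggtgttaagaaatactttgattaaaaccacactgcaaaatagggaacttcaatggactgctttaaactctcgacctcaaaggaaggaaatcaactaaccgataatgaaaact
TMPO: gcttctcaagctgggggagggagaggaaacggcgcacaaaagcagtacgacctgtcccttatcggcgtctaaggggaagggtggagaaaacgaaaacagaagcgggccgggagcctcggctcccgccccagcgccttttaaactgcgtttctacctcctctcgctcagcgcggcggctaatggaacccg
Motif groups were searched on both strands in the 250 bases before each of 34943 RefSeq starts. These were E2F sites (TTTCCCGC, TTTGGCGC, TTTCGCGC or TTTGCCGC; in 2.77% of windows), the CHR (TTTGAA or TTCGAA; 14.4%), CCAAT boxes (32.0%), the E-box CACGTG (6.32%), AP-1 sites (TGANTCA; 6.59%) and the composite ATF4-C/EBP site (TGATGNAA; 3.15%). The table held 12 windows for 6 of the 7 genes. None of the windows of LMNB1, LMNB2, LBR and TMPO held an E2F match. LMNB1 had a CCAAT box 138 bases and an E-box 122 bases before its downstream start, LMNB2 had the CHR 246 bases before its start, LBR had an AP-1 match 51 bases before its start, and TMPO had CCAAT boxes 47 and 15 bases before its upstream start. No motif was shared by all 4 genes, and none of these matches overlapped another. Windows of the other members held matches too. LMNA had the only E2F match of the 12 windows, 23 bases before its most upstream start, with a CCAAT box 146 bases before that start. The LMNA starts searched lay 32134, 31826 and 7991 bases from the nearest start of a transcript marked principal in GENCODE 29. The DNA just before that principal start was not searched. SUN2 had a CHR 111 bases and CCAAT boxes 101 and 57 bases before its most upstream start. It also had an AP-1 match 132 bases before a start further downstream.

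Each table gives, per gene, the mean normalized count over the 6 libraries of a line, a log2 fold change with its standard error (SE), and a p-value adjusted over the genes the authors tested. Values of single libraries are not in these tables, so the depth of each library is unknown and levels carry no SD. Levels before and after treatment were therefore estimated from the mean and the fold change, and no error is known for them. Fold changes are taken to be treated over untreated, since the zinc-responsive genes MT2A and SLC30A1 were positive in all 4 tables (log2 values of 0.57 to 7.19 in the authors' deposited tables) and the apoptosis gene BBC3 was positive in the 3 sensitive lines (1.88 to 3.31). The SK-N-FI table was assigned by elimination, since its name differs from the line's. Nothing in the labels says that replicates were separate cultures, so the p-values may measure technical spread only. The adrenergic neuroblastoma markers summed to mean counts of 20130 to 34924 in the 4 tables, whereas immune and endothelial markers summed to 23.2 to 159 and Schwann cell markers to 49.9 to 204, with SOX10 listed in none. Markers of fibroblasts and muscle had sums of 1432 (LAN5), 1766 (IMR5) and 2890 (SK-N-FI) but 33755 in SK-N-BE(2), mostly LUM (19924) and DCN (11860). COL3A1 (589) and PDGFRB (782) were highest there too, whereas ACTA2 was lowest there (41.0, against 88.7 to 135 in the other lines). COL1A1 (552) and COL1A2 (6.18) in SK-N-BE(2) stood below IMR5 (1104) and LAN5 (28.8), respectively.

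In LAN5, LMNA rose while 4 genes fell and 2 did not pass an adjusted p of 0.05 in the authors' deposited table. There, 41.7% of the 25753 tested genes passed, 22.5% higher and 19.2% lower. In IMR5, LMNA and SUN1 rose, 4 genes fell and SUN2 did not pass, where 44.1% of 22594 tested genes passed, 22.6% higher and 21.6% lower. In SK-N-FI, SUN1 rose, 5 genes fell and LMNA did not pass, where 31.6% of 22576 tested genes passed, 16.8% higher and 14.8% lower. In SK-N-BE(2), 0 of 7 genes passed by the authors' DESeq2 Wald test and 0 had an unadjusted p under 0.05, where 2.48% of 13407 tested genes passed, 1.62% higher and 0.858% lower. Among genes whose mean count was 100 or more, as it was for all 7, the share that passed was 67.0%, 69.6%, 49.1% and 2.87% in LAN5, IMR5, SK-N-FI and SK-N-BE(2). The median log2 fold change of the 7 genes was -0.81, -0.86, -0.67 and 0.06 in that order. All genes tested had medians of 0.09, 0.02, 0.01 and -0.000174, and those with a mean of 100 or more had -0.086, -0.0138, 0.00219 and 0.0014.

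**Figure D1:**
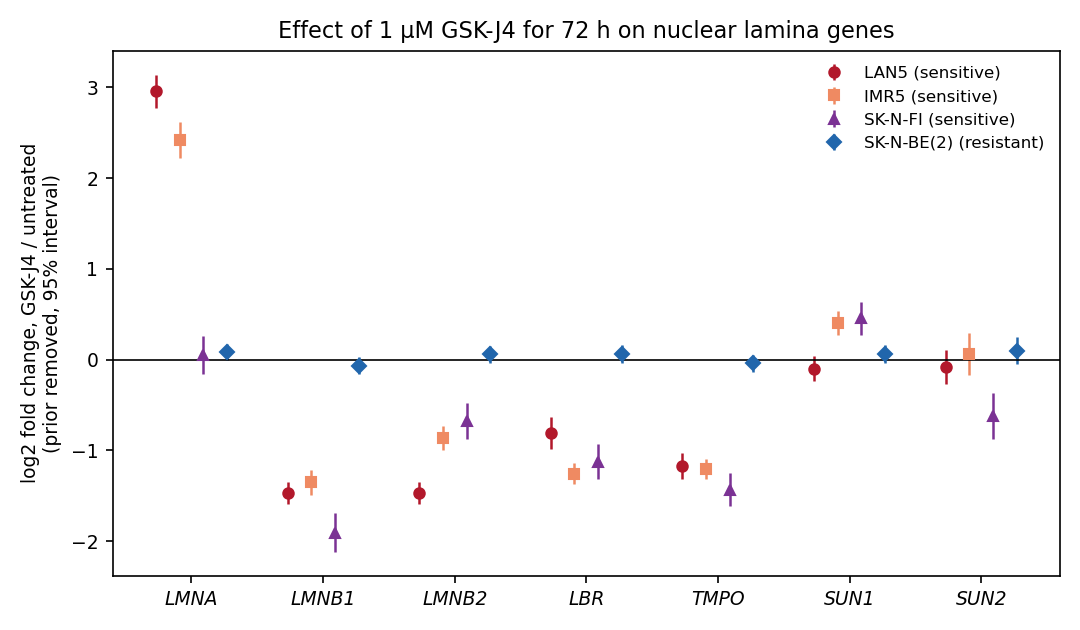
Change of the 7 nuclear lamina genes with GSK-J4 in each line, as log2 fold change (GSK-J4 over untreated) on the y axis after removal of the authors' shrinkage. Points are estimates and bars 95% intervals; LMNA lies far above 0 in LAN5 and IMR5, LMNB1, LMNB2, LBR and TMPO are below 0 in the 3 sensitive lines, and all SK-N-BE(2) points lie near 0.

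LMNA lies on chromosome 1 (GRCh38, 156082573 to 156140089, plus strand, ENSG00000160789). Its mean normalized count was lowest in IMR5 (847), followed by LAN5 (1695), SK-N-FI (4150) and SK-N-BE(2) (4540). The estimated level in untreated cells was 387 in LAN5 and 267 in IMR5 whereas SK-N-FI had 4078 and SK-N-BE(2) 4413, so the first pair of lines started low and the second pair high. After GSK-J4 LAN5 reached 3002 and IMR5 1427, beside 4223 for SK-N-FI and 4667 in the resistant line. LMNA rose 7.75-fold in LAN5 (95% interval 6.82 to 8.82) and 5.35-fold in IMR5 (4.65 to 6.16) once the shrinkage was removed. In the authors' deposited tables the log2 fold change was 2.93 ± 0.0937 (SE) in LAN5 with an adjusted p of 2.94e-212, and 2.39 ± 0.102 in IMR5 with 1.44e-118. In LAN5, 115 of 11145 genes with a mean count of 100 or more had a higher log2 fold change, and in IMR5 94 of 10888. The authors' deposited tables give 0.05 ± 0.103 (adjusted p 0.773) for SK-N-FI and 0.08 ± 0.0414 (adjusted p 0.562) in the resistant line. The spread between untreated lines was 16.6-fold, from IMR5 to SK-N-BE(2) (34.3-fold relative to LMNB1 within each table), and it narrowed to 3.27-fold after treatment with the order of the lines kept. The high LMNA level in SK-N-BE(2) came from the table with the high fibroblast and muscle marker sum given above, which was mostly LUM and DCN. SK-N-FI, with a similar LMNA level, had the highest sum of markers of the mesenchymal neuroblastoma state (37127, against 3572 for LAN5, 14154 for IMR5 and 11606 for SK-N-BE(2)). That sum was mostly FN1 (23246) and CD44 (8700), while VIM was lower in SK-N-FI (3843) than in IMR5 (6631) and SK-N-BE(2) (6493), and YAP1 stood at 16.1 against 1366 in IMR5. The part of those marker lists in the LMNA level was not tested.

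LMNB1 (chromosome 5, 126776623 to 126837020, plus strand, ENSG00000113368) fell in each sensitive line. Its estimated level went from 4549 to 1637 in LAN5, from 7901 to 3090 in IMR5 and from 4138 to 1104 in SK-N-FI, while in SK-N-BE(2) it was 3814 before and 3638 after. LMNB1 was the lamin with the deepest fall in IMR5 and SK-N-FI. The log2 fold change in the authors' deposited tables was -1.88 ± 0.106 (SE) for SK-N-FI, -1.47 ± 0.0615 for LAN5 and -1.35 ± 0.0722 for IMR5, with adjusted p-values of 1.02e-66, 8.18e-124 and 1.93e-75. The resistant line gave -0.06 ± 0.0432 (0.728) in the authors' deposited table. Of 10921 SK-N-FI genes above that same mean, 26 had a lower value.

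LMNB2 (chromosome 19, 2427638 to 2456996, minus strand, ENSG00000176619) also fell in the sensitive lines, but by sizes that differed more between them. The estimates went from 4211 to 1522 in LAN5, from 4969 to 2733 in IMR5 and from 1698 to 1062 in SK-N-FI, with 4065 and 4236 in SK-N-BE(2). In LAN5 LMNB2 and LMNB1 fell by nearly the same amount, whereas SK-N-FI had the lowest LMNB2 level before treatment and the smallest fall. The deposited log2 fold changes were -1.46 ± 0.0615 (adjusted p 1.36e-122), -0.86 ± 0.0662 (8.45e-37), -0.67 ± 0.101 (9.12e-10) and 0.06 ± 0.044 (0.794) in the authors' deposited tables for LAN5, IMR5, SK-N-FI and SK-N-BE(2). LMNB2 overlaps TIMM13, a mitochondrial import gene on the same strand, whose deposited log2 fold changes in the authors' deposited tables were -0.997, -0.71, 0.05 and -0.0029 in the same order. Reads in the shared stretch could be counted for either gene.

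**Figure D2:**
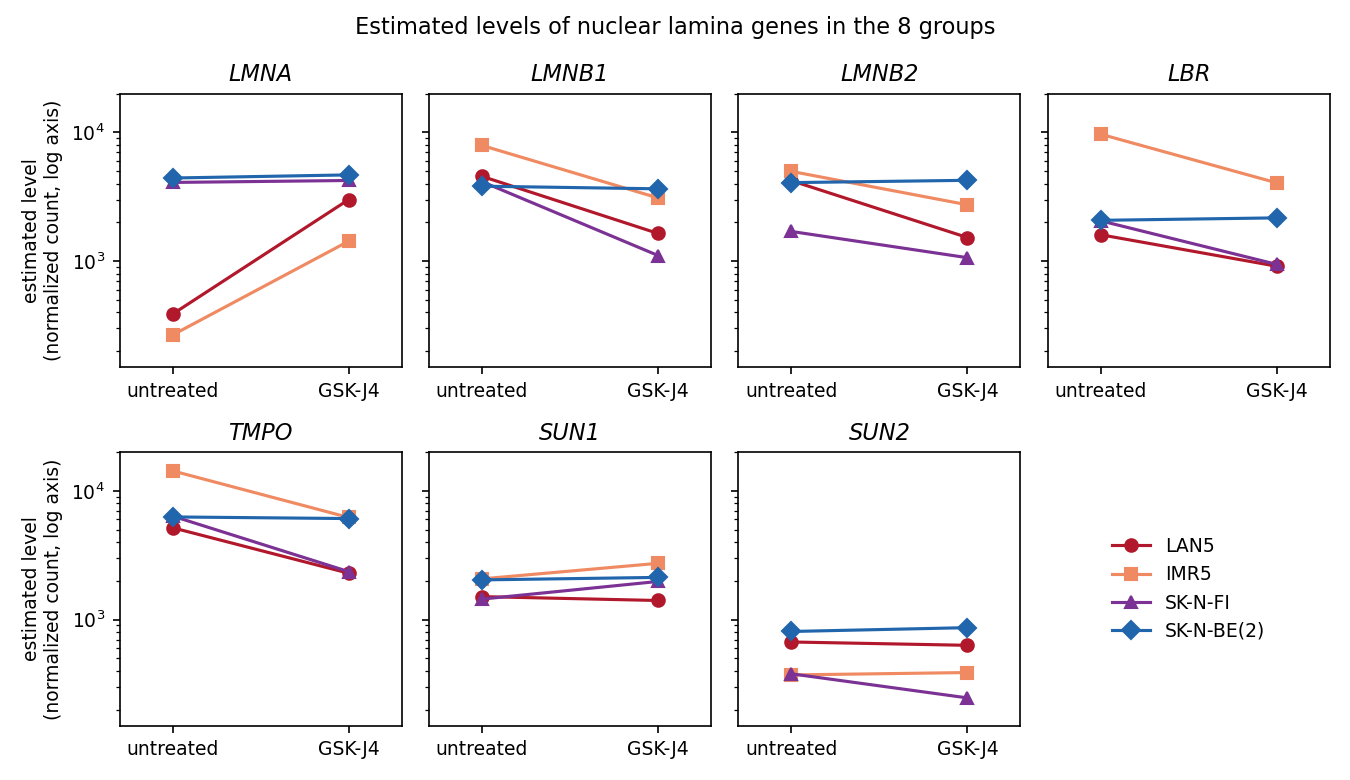
Estimated level of each gene (normalized counts, log axis) in untreated cells and after GSK-J4, joined by a line for each cell line. LMNA climbs from 387 to 3002 in LAN5 and from 267 to 1427 in IMR5, and the lines of SK-N-BE(2) are nearly flat for all 7 genes; the tables were normalized separately and no error is known for a level.

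The balance of A-type to B-type lamin transcripts followed from these opposite movements. The estimated count of LMNA over that of LMNB1 and LMNB2 together, not scaled for gene length, was 0.0442 in untreated LAN5 and 0.950 after GSK-J4, a 21.5-fold change. In IMR5 it went from 0.0207 to 0.245, which is 11.8-fold. In SK-N-FI it went from 0.699 to 1.95, which is 2.79-fold, through the B-type lamins, since LMNA did not pass there. In SK-N-BE(2) the ratio was 0.560 before and 0.593 after. The log2 change of LMNA minus that of LMNB1 was 4.43 ± 0.113 (SE), 3.77 ± 0.126, 1.96 ± 0.15 and 0.15 ± 0.0644 for the lines as ordered above, with the shrinkage removed and the errors of both genes taken as independent. Scaling per kilobase of exon lowered each ratio and kept the order, from 0.0124 in untreated IMR5 to 1.21 in treated SK-N-FI. Within the B-type lamins, the unscaled count of LMNB1 over LMNB2 changed from 2.44 to 1.04 in SK-N-FI and from 1.59 to 1.13 in IMR5, and was 1.08 before and 1.08 after in LAN5.

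**Figure D3:**
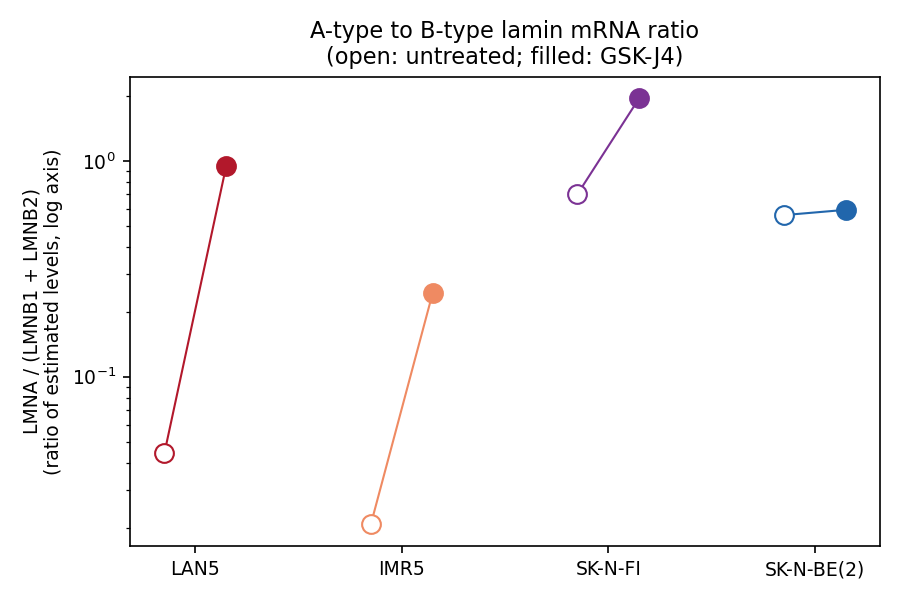
Estimated ratio of LMNA counts to the summed counts of LMNB1 and LMNB2 (log axis) in each line, open points untreated and filled points after GSK-J4. The ratio rises in the 3 sensitive lines, from 0.0442 to 0.950 in LAN5, from 0.0207 to 0.245 in IMR5 and from 0.699 to 1.95 in SK-N-FI, and is 0.560 and 0.593 in SK-N-BE(2).

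LBR (chromosome 1, 225401502 to 225428925, minus strand, ENSG00000143815) was far higher in IMR5 than in the other lines. Untreated IMR5 cells had an estimated 9657, while LAN5 had 1600, SK-N-FI 2053 and SK-N-BE(2) 2072, 6.03-fold from lowest to highest. After GSK-J4 the estimate was 4045 for IMR5, 911 for LAN5, 942 for SK-N-FI and 2165 in the resistant line. LBR fell in the 3 sensitive lines, and its log2 fold change in the authors' deposited tables was -0.81 ± 0.0885 (SE, adjusted p 9.46e-19) for LAN5, -1.11 ± 0.0965 (1.56e-28) for SK-N-FI and -1.25 ± 0.0565 (5.53e-106) for IMR5. In SK-N-BE(2) the authors' deposited table gives 0.06 ± 0.0468 (0.799).

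TMPO (chromosome 12, 98515512 to 98550379, plus strand, ENSG00000120802) fell in the 3 sensitive lines as well. The estimates went from 5164 to 2290 in LAN5, from 14279 to 6202 in IMR5 and from 6363 to 2356 in SK-N-FI, and were 6264 and 6084 in SK-N-BE(2). Its log2 fold changes in the authors' deposited tables were -1.17 ± 0.0743 (SE), -1.20 ± 0.0553, -1.42 ± 0.0928 and -0.04 ± 0.0438 for LAN5, IMR5, SK-N-FI and SK-N-BE(2). The adjusted p-values there were 6.91e-54, 6.81e-102, 5.2e-50 and 0.885. The tables hold 1 value per gene, so LAP2-alpha and LAP2-beta transcripts cannot be told apart. The antisense RNA TMPO-AS1 overlaps the start of TMPO, and its deposited log2 fold changes in the authors' deposited tables were -1.43 ± 0.217, -1.37 ± 0.218, -1.31 ± 0.276 and -0.06 ± 0.0795. Its mean counts in the sensitive lines were 40.9 to 130. Whether the counting used strand is not given in the sources used here, so reads of TMPO and TMPO-AS1 may be mixed.

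The LINC genes SUN1 and SUN2 did not move together. SUN1 (chromosome 7, 816615 to 896435, plus strand, ENSG00000164828) had estimated levels of 2070 before and 2734 after GSK-J4 in IMR5, and 1442 and 1977 in SK-N-FI. It rose in both, with log2 fold changes in the authors' deposited tables of 0.40 ± 0.0674 (SE, adjusted p 1.9e-08) for IMR5 and 0.45 ± 0.0904 (6.68e-06) for SK-N-FI. For LAN5 the authors' deposited table gives -0.10 ± 0.0685 (0.258) and for SK-N-BE(2) 0.06 ± 0.0471 (0.796). SUN2 (chromosome 22, 38734725 to 38794143, minus strand, ENSG00000100242) had mean counts of 650, 380, 313 and 837 in LAN5, IMR5, SK-N-FI and SK-N-BE(2). It fell in SK-N-FI from an estimated 379 to 246, a log2 fold change of -0.61 ± 0.126 (1.36e-05) in the authors' deposited table. The other SUN2 values in the authors' deposited tables were -0.09 ± 0.0951 (0.53) for LAN5, 0.06 ± 0.114 (0.724) for IMR5 and 0.08 ± 0.0616 (0.762) for SK-N-BE(2). The estimated count of SUN1 over SUN2, not scaled for length, thus went from 3.80 to 8.02 in SK-N-FI and from 5.57 to 7.05 in IMR5. SUN1 overlaps the antisense gene AC073957.3, which rose there, with log2 fold changes in the authors' deposited tables of 0.78 (LAN5), 0.62 (IMR5) and 0.81 (SK-N-FI). SUN2 overlaps GTPBP1 on the opposite strand, for which the authors' deposited tables list -0.29 (LAN5), 0.54 (IMR5) and 0.20 (SK-N-FI, not passed). It also overlaps DNAL4 on its own strand, listed there at 0.08 (LAN5, not passed), 0.82 (IMR5) and 0.61 (SK-N-FI). GET4 overlaps SUN1 on the same strand and did not pass in any line.

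The resistant line gave narrow intervals around 0 for each gene. With the shrinkage removed, the 95% interval of the log2 fold change in SK-N-BE(2) was -0.01 to 0.17 for LMNA and -0.16 to 0.02 for LMNB1. The widest was that of SUN2, from -0.05 to 0.24. The mean change of the 3 sensitive lines minus that of SK-N-BE(2) was 1.73 ± 0.0732 (SE) for LMNA, -1.51 ± 0.0669 for LMNB1, -1.06 ± 0.066 for LMNB2, -1.13 ± 0.0703 for LBR and -1.23 ± 0.0647 for TMPO. For the SUN genes it was 0.19 ± 0.0681 (SUN1) and -0.31 ± 0.0991 (SUN2). For LMNA the mean hides the split, since the SK-N-FI change minus the SK-N-BE(2) change was -0.03 ± 0.113.

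The sensitive lines differed among themselves by amounts that depended on the gene. The LMNA change was 2.90 ± 0.141 (SE) higher on the log2 scale in LAN5 than in SK-N-FI, 2.37 ± 0.147 higher in IMR5 than in SK-N-FI and 0.53 ± 0.14 higher in LAN5 than in IMR5. LMNB2 fell further in LAN5 than in IMR5 (-0.61 ± 0.0908) and in SK-N-FI (-0.79 ± 0.12). LBR fell less in LAN5 than in IMR5 (0.44 ± 0.106). LMNB1 fell further in SK-N-FI than in LAN5 (0.43 ± 0.124, LAN5 minus SK-N-FI) and in IMR5 (0.55 ± 0.13, IMR5 minus SK-N-FI). TMPO was within 1 SE of equal in LAN5 and IMR5 (0.03 ± 0.093). The SUN1 change was lower in LAN5 than in IMR5 (-0.50 ± 0.0966), and that of SUN2 was higher in LAN5 than in SK-N-FI (0.54 ± 0.161). Order of level in untreated cells also depended on the gene, with IMR5 highest for LMNB1, LMNB2, LBR, TMPO and SUN1 and SK-N-BE(2) highest for LMNA and SUN2. The order turned on another scale for LMNB1, whose IMR5 level was 0.909 times that of SK-N-BE(2) relative to TMPO, and for SUN1, whose IMR5 level was 0.752 times that of SK-N-FI relative to LMNB1. The highest level was 2.07 times the lowest for LMNB1, 2.93 for LMNB2, 2.77 for TMPO, 1.44 for SUN1 and 2.17 for SUN2. The spread over libraries is unknown here, so neighbours in such an order cannot be called different, and LBR at 2053 and 2072 in SK-N-FI and SK-N-BE(2) is an example.

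Likeness of pattern was measured as the Euclidean distance between the 4 log2 fold changes of a pair of genes, with the shrinkage removed. It was taken over the 8982 genes whose mean count reached 100 in every table. Among the 7 genes the nearest pairs were LBR with TMPO (0.489) and LMNB1 with TMPO (0.581), and the distance of LMNA to LMNB1 was 6.14. The genes nearest to LMNA were CDKN1A (0.625), the cyclin-dependent kinase inhibitor p21, RRM2B (0.732), a ribonucleotide reductase subunit, FADS3 (0.849), of the fatty acid desaturase family, FAM49A (0.866) and TRIM66 (0.902). For CDKN1A the authors' deposited tables list 3.45 (LAN5), 2.16 (IMR5), 0.12 (SK-N-FI) and 0.18 (SK-N-BE(2)), and it passed in the first pair of lines. In SK-N-FI, where LMNA did not pass, CDKN1A and RRM2B did not pass either. The other nearest genes did pass there, FADS3 higher (0.87) and FAM49A (-0.58) and TRIM66 (-0.78) lower, with the shrinkage removed. The genes nearest to LMNB1 were PIK3R3 (0.313), a regulatory subunit of phosphoinositide 3-kinase, CCNF (0.337), which encodes cyclin F, ASPM (0.346), a spindle pole protein gene, FAM83D (0.36), also of the spindle, and PIF1 (0.4), a DNA helicase gene.

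The wider nuclear envelope was followed in 7 lists of 81 genes. Of those tested, 51 of 81 passed in LAN5 (63.0%), 53 of 79 in IMR5 (67.1%), 34 of 80 in SK-N-FI (42.5%) and 1 of 76 in SK-N-BE(2) (1.32%). These shares lie near or below those of all genes with a mean of 100 or more given above, so the number that passed is no feature of the lists. Most of those that passed in the sensitive lines fell, 36 of 51 in LAN5, 43 of 53 in IMR5 and 24 of 34 in SK-N-FI. The shares by direction given above are over all genes tested, and none was taken for genes with a mean of 100 or more. The excess of falls, here and in single lists below, is therefore not read as a feature of the lists. A further 2 lists, of proliferation markers and senescence-associated genes, bring the total to 9 lists of 99 genes. Tested for the difference between the sensitive mean and SK-N-BE(2), 51 of the 81 genes of the 9 lists that reached a mean of 100 in every table passed by a two-sided Wald test, where 59.1% of all 8982 genes did. Between single lines, the share of all 8982 genes that differed was 61.0% for LAN5 against IMR5 and 52.7% for LAN5 against SK-N-FI. Against SK-N-BE(2) that share was 60.7%, 63.0% and 44.1% for LAN5, IMR5 and SK-N-FI.

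Nuclear pore genes were the largest list, and of its 31 genes 19 (LAN5), 22 (IMR5) and 13 (SK-N-FI) fell, while 4, 2 and 2 rose. The median log2 fold change was -0.25, -0.32 and -0.23 for the sensitive lines in that order and 0.02 in SK-N-BE(2), against 0.09, 0.02, 0.01 and -0.000174 over all genes tested. Among genes with a mean of 100 or more, as all 31 have, the LAN5 median was -0.086, the opposite sign. NUP93, of the inner ring, changed by -1.09 ± 0.0732 (SE) in LAN5 and -0.57 ± 0.0899 in SK-N-FI but was -0.03 ± 0.0701 in IMR5 in the authors' deposited tables. NUP210, a pore membrane glycoprotein gene, changed by -0.56 ± 0.0833 in LAN5 and -1.58 ± 0.162 in SK-N-FI and was 0.14 ± 0.106 in IMR5 in the authors' deposited tables. NUP62, of the central channel, fell most in IMR5 (-0.88 ± 0.0795 in the authors' deposited table). NUP205 was the single pore gene that passed in SK-N-BE(2), higher by 0.13 ± 0.0402 with an adjusted p of 0.0386 in the authors' deposited table. That p was 0.0837 when all genes with a p-value were counted.

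Other inner membrane genes and genes of their partners did not move as a block. They include genes with a LEM domain, which binds the chromatin protein BAF. Among the partners are BANF1, the gene of BAF, and the torsin genes TOR1A and TOR1B. Of all 13, 4 rose and 2 fell in LAN5, 2 rose and 8 fell in IMR5, and 3 rose and 1 fell in SK-N-FI. The medians were 0.05, -0.17 and 0.01 in that order. BANF1 fell in LAN5 and IMR5, and TOR1A rose in LAN5 and fell in IMR5 and SK-N-FI. LEMD2 rose in IMR5 (0.70 ± 0.0882 in the authors' deposited table), NEMP1 rose in LAN5 (0.68 ± 0.0715) and TMEM201 fell in LAN5 and IMR5 (-0.55 and -0.66 in the authors' deposited tables). Among nesprins and other LINC genes, 2 of 6 rose and 1 fell in LAN5, 3 of 5 rose in IMR5, and 1 of 6 rose and 1 fell in SK-N-FI, with medians of 0.78, 0.62 and 0.33. The LAN5 and SK-N-FI medians rest partly on genes of low mean count that did not pass. These were SYNE4 (10.8 in LAN5, 9.44 in SK-N-FI) and SUN3 (1.49 and 11.4). By the authors' deposited tables SYNE1, which encodes nesprin-1, rose in LAN5 (0.72 ± 0.0739, SE) and IMR5 (0.62 ± 0.0834), and SYNE2, which encodes nesprin-2, fell in LAN5 (-0.95 ± 0.0901) and SK-N-FI (-0.96 ± 0.339). The last call (adjusted p 0.0171 in the authors' deposited table) was lost at a threshold of 0.01. SPAG4, another SUN domain gene, rose in SK-N-FI by 1.32 ± 0.187 in the authors' deposited table and also passed in IMR5, at low mean counts of 105 and 46.6.

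Prelamin A and the B-type lamins share processing enzymes that add and trim the farnesylated tail. ICMT, the methyltransferase that caps it, fell in the 3 sensitive lines, at -0.87 ± 0.0777, -0.99 ± 0.0863 and -0.94 ± 0.0905 (SE) in the authors' deposited tables. Its estimate in SK-N-BE(2) was 0.08 ± 0.0496 in the authors' deposited table. ZMPSTE24, the protease that releases mature lamin A, fell in IMR5 (-0.79 in the authors' deposited table). RCE1, a CAAX protease, rose in LAN5 (0.54 in the authors' deposited table) and SK-N-FI (0.69). Over the 5 genes, 1, 0 and 2 rose and 2, 3 and 1 fell in LAN5, IMR5 and SK-N-FI, with medians of -0.19, -0.62 and 0.10.

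Chromatin partners of LBR and TMPO fell more often than they rose, 6 against 1 of 10 in LAN5, 4 against 2 in IMR5 and 3 against 0 in SK-N-FI, with medians of -0.36, -0.17 and 0.00574. CBX1 and CBX3 encode the heterochromatin proteins HP1-beta and HP1-gamma, which bind LBR. The authors' deposited tables show CBX1 lower in LAN5 (-1.11 ± 0.057, SE) and IMR5 (-0.61 ± 0.0532), with -0.01 ± 0.0901 for SK-N-FI. CBX3 fell in all 3, with values in the authors' deposited tables of -1.02 ± 0.0578, -1.10 ± 0.0561 and -0.31 ± 0.12. The SK-N-FI call of CBX3 (adjusted p 0.0325 in the authors' deposited table) was lost at a threshold of 0.01. SUV39H2, a histone H3 lysine 9 methyltransferase gene, fell in the 3 lines too, and its values in the authors' deposited tables were -0.77 ± 0.0841, -0.98 ± 0.0813 and -0.81 ± 0.115.

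Kinases and cyclins that take the lamina apart in mitosis fell in 5 of 8 tested genes in LAN5, 4 of 7 in IMR5 and 4 of 7 in SK-N-FI, with 1, 1 and 0 higher and medians of -0.77, -0.28 and -0.52. PLK1, by the authors' deposited tables, had log2 fold changes of -3.09 ± 0.0977, -1.005 ± 0.0822 and -1.52 ± 0.129 (SE) and CCNB1, cyclin B1, of -2.39 ± 0.0779, -1.35 ± 0.0753 and -1.48 ± 0.108 in LAN5, IMR5 and SK-N-FI. PRKCA, a lamin kinase gene of the protein kinase C family, went the other way in IMR5 (1.85 ± 0.0896 in the authors' deposited table). Of the 8 genes of envelope resealing after mitosis, 2, 0 and 2 rose and 1, 2 and 1 fell, with medians of -0.15, -0.07 and 0.02.

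**Figure D4:**
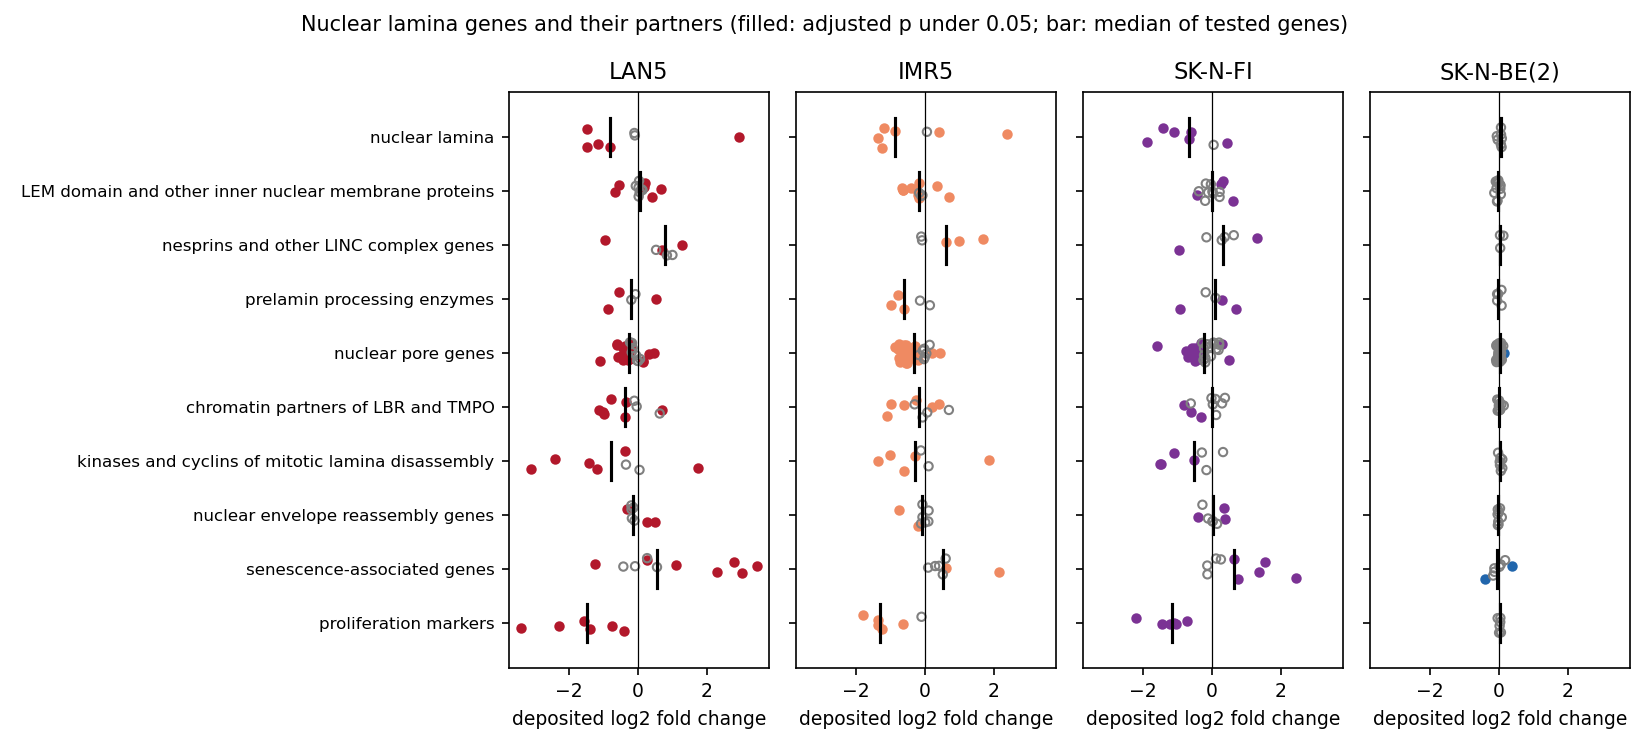
Deposited log2 fold change (x axis) of the 7 nuclear lamina genes and of the genes of 9 lists in each line. Each point is a gene, filled where the authors' adjusted p is under 0.05, and the bar is the median of the tested genes; nuclear pore medians lie at -0.25, -0.32 and -0.23 in the sensitive lines and at 0.02 in SK-N-BE(2).

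The fall of LMNB1, LMNB2, LBR and TMPO came with changes in other lists that are not of the nuclear envelope. Proliferation markers fell in 6 of 6 genes in LAN5, 5 of 6 in IMR5 and 6 of 6 in SK-N-FI, and 0 of 6 passed in SK-N-BE(2), with medians of -1.47, -1.29, -1.16 and 0.03. MKI67, which encodes the Ki-67 antigen, fell in each of the 3, and the authors' deposited tables list -3.39 ± 0.0825, -1.81 ± 0.0677 and -2.21 ± 0.215 (SE). Senescence-associated genes rose in 6 of 11 tested in LAN5, 2 of 7 in IMR5 and 5 of 9 in SK-N-FI, with 1, 0 and 0 lower. Over all genes tested, 22.5%, 22.6% and 16.8% rose in these lines. The list medians were 0.56, 0.52 and 0.63. The LAN5 median was the value of IGFBP7 (mean count 10.8) and the IMR5 median that of CDKN2B (5.29), and neither gene passed there. Among the rises, mean counts were low for MMP1 (5.39), CDKN2A (15.1) and CDKN2B (21.4) in LAN5 and CXCL8 (13.1) in SK-N-FI. In SK-N-BE(2), 1 of 8 rose, the chemokine gene CCL2 (0.38 in the authors' deposited table), and 1 fell, IGFBP3 (-0.41), with a median of -0.06. Mitochondrially encoded mRNAs, listed as a sign of RNA quality, fell in 9 of 13 in LAN5, 8 of 13 in IMR5, 13 of 13 in SK-N-FI and 2 of 13 in SK-N-BE(2), with 1, 2, 0 and 0 higher and medians of -0.97, -0.62, -1.93 and 0.04. Adrenergic markers fell in 8 of 8 in LAN5, 4 of 7 in IMR5, 5 of 7 in SK-N-FI and 5 of 8 in SK-N-BE(2), while PHOX2A and GATA3 rose in IMR5 (0.45 and 0.23 in the authors' deposited table) and GATA3 in SK-N-FI (0.82). The part of these changes in the fall of the lamina genes was not tested. In bulk RNA, fewer cells that express a gene and less of its RNA per cell cannot be told apart.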

How the data were processed

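Polyadenylated RNA of 24 libraries was made into stranded libraries with a KAPA kit, per the labels' protocols. Reads were handled with FastQC, STAR and DESeq2 on hg38, per the submitters' processing notes. The sources used here do not name the counting tool, the annotation, the use of strand or the model formula. The authors deposited 1 comparison table per line. Per the file headers, its columns are a mean normalized count over all libraries of the line (a normalized signal, not a count), a log2 fold change and its standard error on the log2 scale, a Wald score, and a p-value with its adjusted p-value. In the deposited SK-N-BE(2) table the Wald score differs from fold change over SE by over 0.0001 for 19488 genes (median 0.000382), and in the other tables for 0. Depth per library is unknown.

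From these tables, the fold changes were read as deposited and genes called at the authors' adjusted p under 0.05. The shrinkage was removed by assuming a normal prior with an SD of 2 times the table's largest SE. Levels were estimated as untreated = 2 × mean / (1 + fold) and treated = untreated × fold, for 3 against 3 libraries. Differences between lines used the unshrunk values of 8982 genes whose mean reached 100 in every table, with a two-sided Wald test and Benjamini-Hochberg adjustment over all of them per contrast, printed for list genes only. The script was checked on simulated data that were shrunk with the same assumed prior, so that check cannot test the assumed SD. Gene positions are from GENCODE 29. Scripts ran in Python 3.11.15 with numpy 2.4.6, pandas 2.3.3, scipy 1.17.1 and matplotlib 3.10.9.

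The members and lists were chosen with earlier results of these data known. All 7 members, up to 3 genes per list (the largest changes in any line), the calls in SK-N-BE(2) and the 5 genes most like LMNA and LMNB1 are named, and some items are not reported here. Because the files hold no values per library, the planned count tests were replaced by the authors' deposited values.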

Additional observations from a re-analysis of the deposited data

Results flagged for a closer look

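Among the named genes of the nuclear envelope lists, NUP205 and VPS4B passed the threshold in opposite directions in different lines. The named genes alone were screened for this. Over all 81 genes of the 7 envelope lists, 11 had such opposite calls in at least 1 pair of lines, 7 of them between LAN5 and IMR5. The differences below are a description, since the opposite calls chose the genes. NUP205, a scaffold gene of the nuclear pore, fell in the sensitive lines and was higher in SK-N-BE(2). Its log2 fold change in LAN5 minus SK-N-BE(2) was -0.56 ± 0.0788 (SE). In IMR5 minus SK-N-BE(2) it was -0.35 ± 0.072, and in SK-N-FI minus SK-N-BE(2) -0.86 ± 0.185. Its call in SK-N-BE(2) itself was lost without the filter on low means.

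VPS4B, an ATPase gene of the machinery that reseals the envelope, rose in LAN5 and fell in IMR5. The difference of LAN5 minus IMR5 was 1.24 ± 0.115 (SE).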

How the results depend on the processing

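No paired analysis was possible because the files hold comparisons and no values per library. For the same reason leaving out each replicate, edgeR and the DESeq2 alternative were not run. The 112 values of the 7 genes in the single lines under other thresholds, adjustments and centring kept their side of the threshold. Those that passed also kept their direction, which was not compared for the others. The SUN2 value in LAN5 (-0.0851) lay just above the median it was centred on (-0.0860), so its sign turned. Named list genes were tried only at an adjusted p of 0.01 and with adjustment over all genes with a p-value, not with centring. Of their values, 222 kept their side of the threshold, and the other 4 lost the call. These were SYNE2 and CBX3 in SK-N-FI and NUP205 in SK-N-BE(2) at an adjusted p of 0.01, and NUP205 (0.0837) when all genes with a p-value were adjusted over. Centring each line on its median moved 4 differences between lines by over 1 SE, all of LAN5 minus SK-N-BE(2), to -1.31 for LMNB1, -1.43 for LMNB2, -0.07 for SUN1 and -1.03 for TMPO. The other 192 values of the differences, under 4 alternatives, moved by less. The count of list genes that differed between sensitive lines and SK-N-BE(2) was 48 to 54.

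Levels between tables depended on the scale. The untreated LMNA ratio of SK-N-BE(2) to IMR5, 16.6 as estimated, was 34.3 relative to LMNB1 within each table and 20.5 as a share of the summed levels, and the mean stood 14.6 percentile points apart. Relative to TMPO, LMNB1 in IMR5 was 0.909 times that in SK-N-BE(2), against 2.07 as estimated. Relative to LMNB1, SUN1 in IMR5 was 0.752 times that in SK-N-FI, against 1.44. The cause was not tested.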
